A study of Oncorhynchus mykiss with 15 samples.

Results

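Of 25695 genes tested in fat cells of rainbow trout (Oncorhynchus mykiss), 64 met a rule for genes high in intramuscular fat alone. Their levels were lower, and similar to each other, in visceral and in subcutaneous fat. The 64 genes were chosen by these measured values, in CPM (counts divided by library totals that edgeR's TMM method had scaled). A member had a mean of at least 10 CPM over the 5 intramuscular libraries. Its lowest intramuscular library was over 4 times its highest visceral or subcutaneous library, and its means in the latter depots were within 2-fold of each other. The level difference between intramuscular fat and the other depots is therefore the rule and not a result. It is given as a description that supports nothing. The rule was applied after a filter on low counts, which members with few counts elsewhere passed through their intramuscular libraries. The deposited table holds 64494 genes by Ensembl identifier and does not pair them with names. None of the members could be matched to a name in the RefSeq table supplied, so the identifiers of 2 members are printed and the others are referred to by their rank of mean CPM in intramuscular fat.

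Each library came from mature adipocytes of adult, untreated fish kept under the same conditions, and the labels give no strain. Visceral adipose tissue (VAT), subcutaneous adipose tissue (SAT) and intramuscular adipose tissue (IMAT) had 5 libraries each, and collagenase type II was used to free the cells. Which fish gave which library is not stated, so any spread between libraries may be partly technical. Mature adipocytes store triacylglycerol in a large lipid droplet and release fatty acids when the animal needs them. In salmonid fish the visceral depot surrounds the gut, the subcutaneous depot lies under the skin, and intramuscular adipocytes sit among the muscle fibres and in the myosepta, the connective sheets between muscle segments. The labelled cell type could not be checked against marker genes, because no marker could be matched to an identifier. In such bulk samples, RNA from a larger number of cells of some type and more RNA per cell cannot be told apart.

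The IMAT libraries were the shallowest, with 2413951 to 4199494 counts, against 4203986 to 7243006 in SAT and 5872244 to 9414223 in VAT. A count of 3 corresponded to 1.09 to 1.44 CPM in IMAT and to 0.28 to 0.569 CPM in the other depots, so low levels outside IMAT were read with more depth than the levels in IMAT. IMAT replicate 2 stood apart, with 31.5% of its counts in a single gene that is no member (3.47 to 10.8% in the other IMAT libraries) and a TMM factor of 0.501 (0.894 to 1.14). VAT replicate 5 and SAT replicates 4 and 5 had the most detected genes of their depots. Without IMAT replicate 2 the rule found 58 genes, all of them members. Leaving out VAT replicate 5 together with SAT replicates 4 and 5 gave 121 genes, of which 55 were members. Apart from rescaling, leaving out VAT or SAT libraries can only ease the 4-fold condition, so part of this rise was built in. No other set of this size was left out, so the rise is not read as particular to these libraries.

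The members together took a small share of the counts of IMAT and a far smaller one elsewhere. Their share was 0.609, 1.11, 0.827, 0.792 and 0.502% in IMAT replicates 1 to 5. In SAT it was 0.0269, 0.0249, 0.0226, 0.0283 and 0.0320%, and in VAT 0.0229, 0.0256, 0.0231, 0.0245 and 0.0193%. The lowest IMAT share was thus above every share of the other depots, a separation that the choice of members fixes, and the shares of SAT and VAT overlapped. The means were 0.768% ± 0.234 (SD, n = 5) in IMAT, 0.0269% ± 0.00355 in SAT and 0.0231% ± 0.00236 in VAT, and the IMAT mean was 0.682% without replicate 2. With the gene of the most counts taken out of the totals, the means were 0.909% in IMAT, 0.0277% in SAT and 0.0235% in VAT. Counting error was small beside this spread, with a 95% Clopper-Pearson interval of 0.493 to 0.511% for the lowest IMAT share and of 0.0185 to 0.0202% for the lowest VAT share. All such intervals cover counting error only. In TMM CPM rather than shares, the members' sums were 236.3 to 271.3 CPM in the SAT libraries and 169.8 to 236.9 CPM in VAT. Without the gene ranked 1 the sums were 225.1 to 242.9 CPM in SAT and 153.8 to 221.9 CPM in VAT, with no overlap. This order is a description and was not tested.

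Most members had moderate counts in IMAT. The mean in IMAT was 11.02 CPM for the lowest member, 45.4 CPM for the median and 3626 CPM for the highest. One member exceeded 1000 CPM, 19 lay between 100 and 1000 CPM, 9 between 50 and 100 CPM, 22 between 20 and 50 CPM, and 13 below 20 CPM. CPM is not corrected for gene length, which the table does not give, so the ranks order counts and not transcripts. In SAT the member means ran from 0.151 to 31.96 CPM with a median of 1.72 CPM. In VAT they ran from 0.141 to 31.2 CPM with a median of 1.38 CPM. Most members were low but not absent outside IMAT. With a single count taken as enough, 53 had counts in all 5 SAT libraries and 47 in all 5 VAT libraries. Per library, 49 to 60 members had 3 counts or more in SAT and 48 to 57 in VAT.

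**Figure D1:**
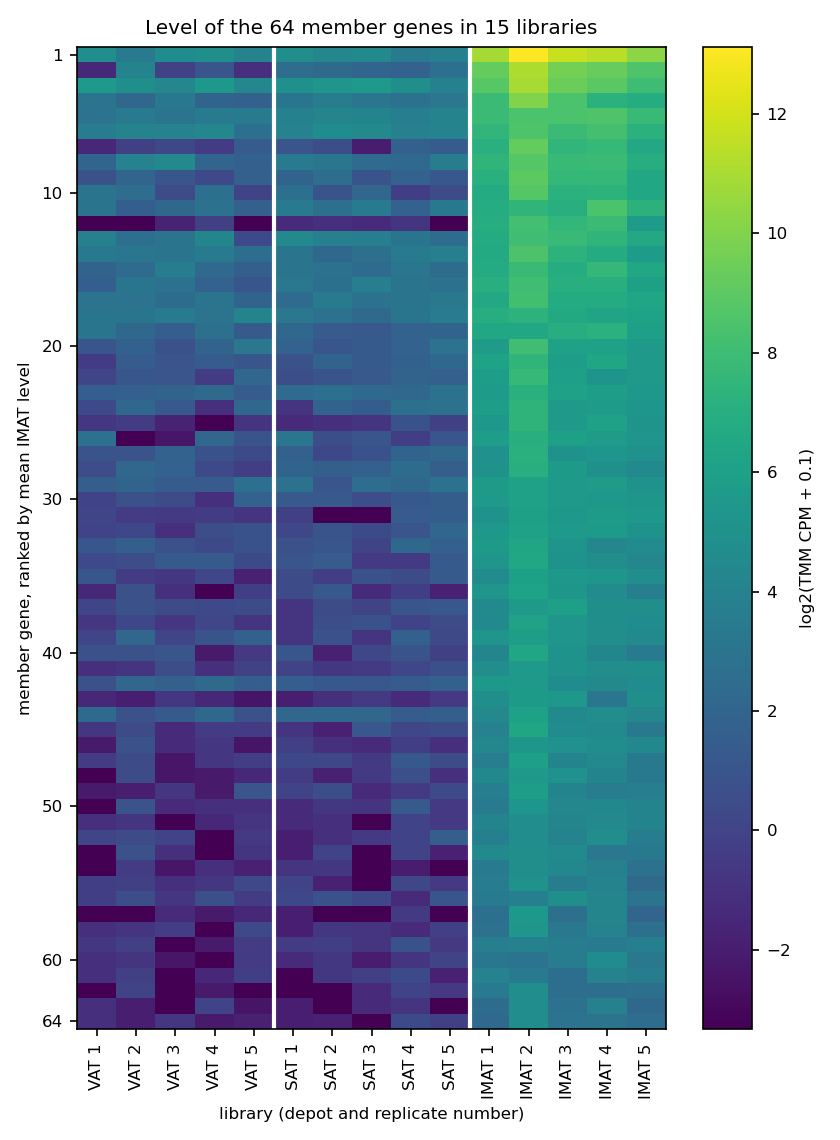
Heat map of log2(TMM CPM + 0.1) for the 64 members (rows, ranked by mean IMAT CPM) in the 15 libraries (columns, white lines between depots). The 5 IMAT columns are brighter than the other 10 in every row, as the rule required, and the column of IMAT replicate 2 is the brightest in most rows.

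ENSOMYG00000029405 had the most counts of the members in IMAT and is ranked 1. It measured 1902, 8915, 3413, 2699.6 and 1203 CPM in IMAT replicates 1 to 5. Its 5 SAT values were 28.4, 19.6, 23.3, 11.2 and 13.5 CPM, and its 5 VAT values 26.3, 11.3, 25.6, 28.8 and 15.95 CPM. Within IMAT it was highest in replicate 2 and lowest in replicate 5, while SAT and VAT covered nearly the same range. Its mean was 3626 ± 3071 CPM (SD, n = 5) in IMAT, 19.2 ± 7.05 CPM in SAT and 21.6 ± 7.53 CPM in VAT. It alone held 35.2% of the members' counts in IMAT, and the 5 members ranked highest held 58.7%. Pooled over libraries, its IMAT level was 157-fold that of VAT (95% counting interval 147 to 167) and 176-fold that of SAT (163 to 192). Without IMAT replicate 2 these ratios were 102 and 115, so that library alone moved them by over 1.5 times.

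ENSOMYG00000022328, ranked 12, was the member whose lowest IMAT library stood farthest above its highest other library, by 71.8-fold. It measured 123, 296, 186, 239.9 and 55.4 CPM in IMAT replicates 1 to 5. In SAT it measured 0.314, 0.364, 0.305, 0.448 and 0 CPM, which came from 9 counts. In VAT it had 8 counts, with 0.198 CPM in replicate 3, 0.771 CPM in replicate 4 and none in replicates 1, 2 and 5. This gene was near the limit of detection outside IMAT, where single counts set its level. Its pooled IMAT level was 927-fold that of VAT (95% counting interval 469.6 to 2150.5) and 581-fold that of SAT (306 to 1273). VAT replicate 4 held 6 of the 8 VAT counts, and without it the pooled ratio to VAT was 3039 (840.2 to 25111). Without that library the gene's SAT and VAT means were also over 2-fold apart, so it no longer met the rule. With each of the 15 libraries left out in turn, it met the rule 14 times. The ratio of its lowest IMAT to its highest other library was 123.7 without VAT replicate 4 and 159.7 without IMAT replicate 5. For these ratios, leaving out 1 library at a time was added after seeing the data. Each other library moved them by less than 1.5 times.

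The genes ranked 2, 3 and 4 differed in how far they fell outside IMAT. The gene ranked 2 measured 607, 2220.1, 806, 642 and 388 CPM in IMAT replicates 1 to 5 and 3.43 to 6.26 CPM in the SAT libraries. In VAT it measured 0.248, 16.3, 0.791, 1.93 and 0.373 CPM, so its VAT mean of 3.93 CPM came mostly from replicate 2. The other 4 VAT libraries all lay below the 5 SAT libraries. Without VAT replicate 2 its SAT and VAT means were over 2-fold apart, so it no longer met the rule.

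The gene ranked 3 measured 469, 2045, 681, 479.7 and 255 CPM in IMAT and had the highest level of all members outside IMAT. It measured 30.8, 37.6, 46.8, 29.7 and 15.0 CPM in SAT and 44.7, 29.1, 19.8, 43.0 and 19.7 CPM in VAT. SAT and VAT overlapped over most of their ranges. The lowest IMAT library was 5.46 times the highest other library, near the bound of 4. The gene ranked 4 measured 241, 1025, 346, 144 and 116 CPM in IMAT, 7.31 to 12.5 CPM in SAT and 3.26 to 10.1 CPM in VAT.

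**Figure D2:**
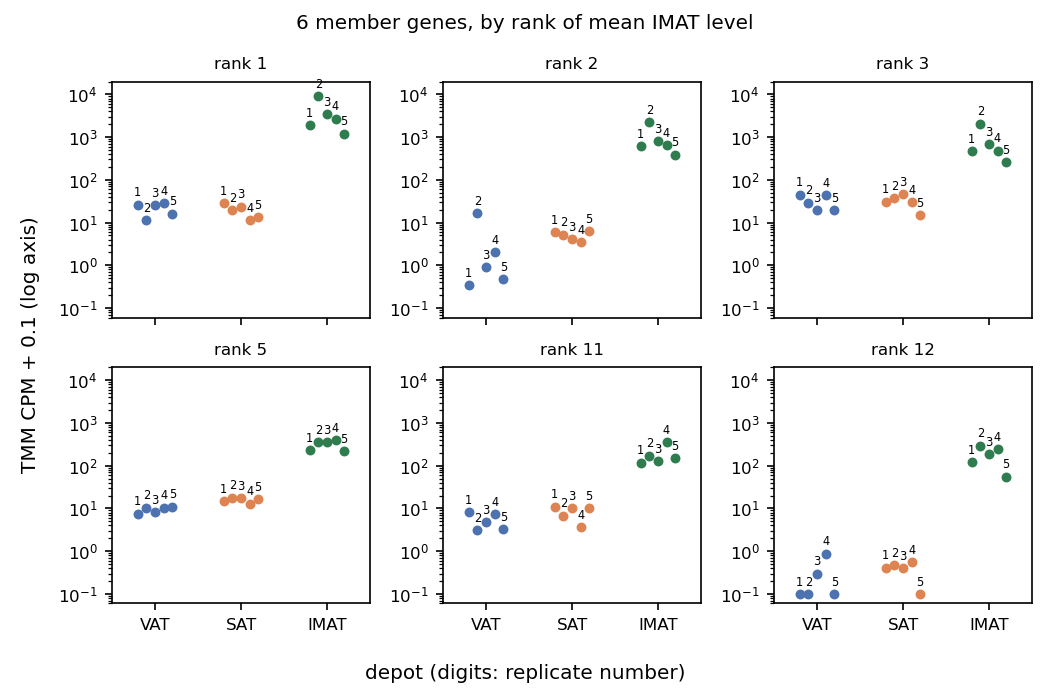
CPM + 0.1 on a log axis for the members ranked 1, 2, 3, 5, 11 and 12 by mean IMAT CPM, with 1 point per library in VAT, SAT and IMAT and digits for the replicate number. IMAT replicate 2 is highest in IMAT for ranks 1, 2, 3 and 12, replicate 4 is highest for ranks 5 and 11, and VAT replicate 2 stands above the other VAT libraries for rank 2.

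The gene ranked 5 was the member in which SAT and VAT separated. It measured 234, 357, 357, 391 and 218.5 CPM in IMAT replicates 1 to 5. In SAT it measured 14.9, 17.8, 17.1, 12.8 and 16.3 CPM, and in VAT 7.45, 10.3, 8.01, 10.3 and 10.8 CPM. All 5 SAT libraries lay above all 5 VAT libraries, within the 2-fold bound, and its spread was small in every depot. Its mean of 312 ± 79.4 CPM (SD, n = 5) in IMAT compared with 15.8 ± 1.97 CPM in SAT and with 9.36 ± 1.52 CPM in VAT. The ratio of lowest IMAT to highest other library was 12.3.

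Replicate 2 was not the highest IMAT library for every member. The gene ranked 11 measured 118, 172, 129.9, 358 and 152 CPM in IMAT replicates 1 to 5, 3.58 to 10.98 CPM in SAT and 2.95 to 7.94 CPM in VAT. Here replicate 4 was over 2 times as high as each of the other IMAT libraries. Among members with few counts, the gene ranked 60 measured 8.79, 7.66, 11.6, 25.2 and 9.41 CPM in IMAT and at most 0.948 CPM elsewhere, again with replicate 4 highest.

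The steadiest member in IMAT was the gene ranked 59, with 13.2, 14.8, 11.6, 10.9 and 13.4 CPM. Its highest SAT library had 1.64 CPM and its highest VAT library 0.777 CPM. The gene ranked 30 was also steady, with 45.6, 67.5, 46.1, 42.7 and 40.9 CPM in IMAT, 1.37 to 2.84 CPM in SAT and 0.385 to 3.45 CPM in VAT. The widest range in IMAT belonged to the gene ranked 57, with 6.39, 42.6, 6.52, 18.7 and 3.98 CPM, a 10.7-fold span. It had 5 counts in all SAT libraries and 7 in all VAT libraries.

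Some members outside IMAT were high in particular libraries of both other depots. The gene ranked 26 measured 8.79 CPM in SAT replicate 1 and 0.746 to 1.98 CPM in the other SAT libraries. In VAT it measured 6.95, 0, 0.0989, 4.24 and 1.77 CPM. The gene ranked 13 measured 22.6, 14.4, 13.2, 8.20 and 5.498 CPM in SAT and 14.03, 6.22, 7.91, 18.2 and 1.21 CPM in VAT, against 110.3, 275, 216, 171 and 95.9 CPM in IMAT. Its SAT replicate 1 set the ratio of 4.24 that placed it just inside the rule.

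In a fit of all 25695 genes (quasi-likelihood F-test of edgeR, Benjamini-Hochberg adjusted p under 0.05), 64 of 64 members were higher in IMAT than in VAT, where 13.1% of all genes tested were. Likewise, 64 of 64 were higher in IMAT than in SAT, where 7.35% of all genes were. The rule used both contrasts, so nothing is read from these counts. The IMAT libraries are common to both. The fitted log2 fold changes of the members ran from 3.24 to 9.75 against VAT with a median of 5.10, beside a median of -0.10 over all genes tested. Against SAT they ran from 3.08 to 9.15 with a median of 4.73, beside -0.05 over all genes tested. The largest value in each belonged to ENSOMYG00000022328 (9.75 with SE 0.712 and 9.15 with SE 0.699), and ENSOMYG00000029405 had 7.39 (SE 0.598) and 7.56 (SE 0.603). Without IMAT replicate 2 the medians were 4.68 against VAT and 4.29 against SAT.

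The distance between IMAT and the other depots varied widely among members. The ratio of the lowest IMAT library to the highest other library had a median of 6.52 over the members and exceeded 8 in 23, 16 in 7 and 32 in 2 of them. The highest other library was in SAT for 42 members and in VAT for 22. SAT replicates 4 and 5 were that library for 26 members, of which 2 were among the 20 members ranked highest and 24 among the 44 ranked lower. In these libraries the median member level was 2.24 and 2.37 CPM, against 1.29 to 1.64 CPM in the other SAT libraries and 0.993 to 1.55 CPM in VAT. SAT replicates 4 and 5 also had the most detected genes of all libraries, 46175 and 44738, and the part of this in the members' values was not tested. How often SAT, or these libraries, held the highest other value over all tested genes was not counted. The counts of 42 and 26 are therefore not read as particular to the members. A single count was worth 0.149 to 0.19 CPM in the SAT libraries and 0.0933 to 0.155 CPM in VAT, which weighs most at low levels.

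**Figure D3:**
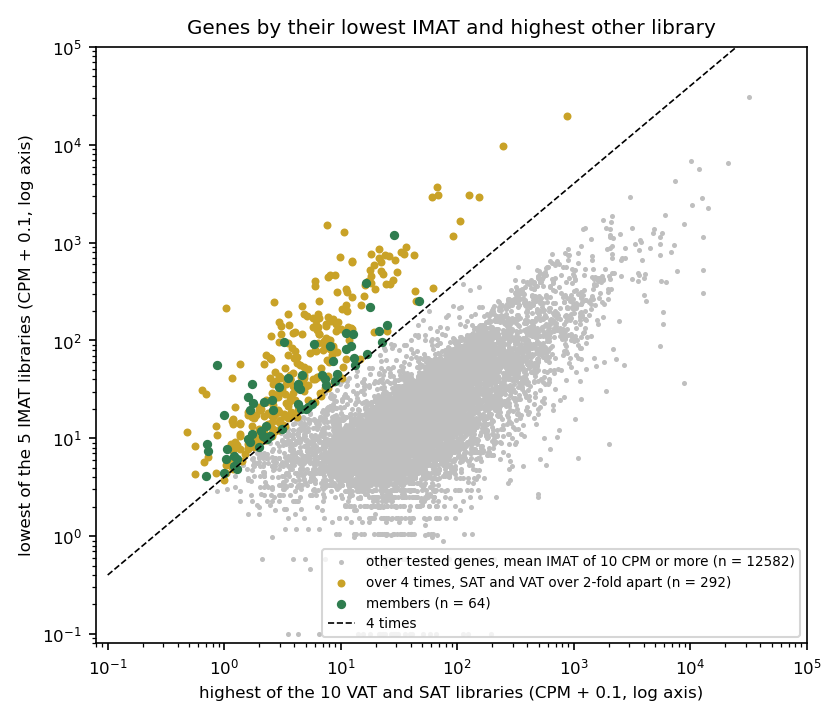
Lowest of the 5 IMAT libraries against the highest of the 10 VAT and SAT libraries (CPM + 0.1, both axes log). Drawn are the tested genes with a mean of at least 10 CPM in IMAT. Members are green, the 292 other genes with a ratio over 4 are yellow and the remaining genes are grey. By their ratios without the added 0.1 CPM, members run from 4.01-fold to 71.8-fold and mix with the yellow genes, which reach 225.6-fold. The dashed line marks 4 times without that addition, so members nearest to the bound are drawn at or slightly below it. The median ratio was 10.7 for the yellow genes and 6.52 for the members.

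More members had their higher mean in SAT than in VAT. The SAT mean was above the VAT mean in 48 of 64 members, against 47.3% of all genes tested. The ratio of SAT to VAT had a median of 1.36 and ran from 0.598 to 1.98. The rule bounded it at both ends, but mainly the upper bound removed genes. Of the 356 genes that met the other conditions, 1 had a ratio below 0.5. By the fit, 1 member was lower in VAT than in SAT (5.76% of all genes were) and 0 were higher (2.37% of all genes were). The member called was the gene ranked 5 (log2 fold change of VAT against SAT -0.75, SE 0.226). Its call was lost when VAT replicate 1, 3 or 4, SAT replicate 1, 2, 3 or 5, or IMAT replicate 3 was left out. It was also the one member in which all SAT libraries lay above all VAT libraries, which 5.8% of all genes showed, and 0 members showed the opposite order, which 2.86% of all genes did. The rule capped this ratio, so the low counts of calls are no result.

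How level the members were between SAT and VAT was not well measured for many of them. The median member had 51 counts in the 5 SAT libraries together and 62 in the 5 VAT libraries, and the lowest had 5 and 7. The 95% counting interval of the pooled SAT to VAT ratio stayed within 2-fold either way for 29 members and reached past 2-fold for 35. It included 1 for 35 members, lay wholly above 1 for 24 and wholly below 1 for 5. These intervals leave out the spread between libraries, so they show neither a difference nor levelness between the depots. For the median member the coefficient of variation between libraries was 51.2% in SAT and 63.7% in VAT. The fit, which uses that spread, called 1 member. The gene ranked 10 was among the members with more in VAT, with 6.43, 1.82, 4.11, 0.746 and 1.33 CPM in SAT and 8.07, 5.75, 1.29, 6.42 and 0.933 CPM in VAT. These ranges overlap over nearly their whole length.

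The bound on SAT and VAT cut through a continuous range of ratios. In all, 356 genes met the first conditions, and the 64 members were 17.98% of them. The median ratio of SAT to VAT over the 356 genes was 3.93. The ratio was between 1 and 1.5 in 23 genes, between 1.5 and 2 in 25, between 2 and 3 in 56 and between 3 and 4 in 59. Among the 292 genes beyond the bound, the SAT mean was above the VAT mean in 291, and the counting interval of the ratio reached inside 2-fold in 81. No gap therefore separated the members from genes whose means increased from VAT to SAT to IMAT.

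**Figure D4:**
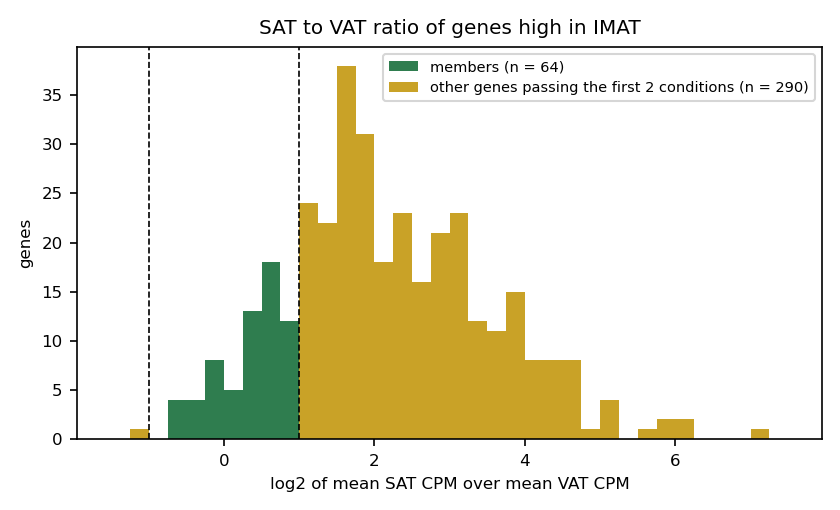
Number of genes by the log2 of mean SAT CPM over mean VAT CPM, for the genes that met the first conditions of the rule, with members in green and the other genes in yellow (2 genes with no VAT counts are not drawn). Dashed lines mark the 2-fold bounds, and the counts rise across the upper bound without a gap.

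Across the 5 IMAT libraries most members were high in the same library and low in the same library. On the log2 scale, relative to each gene's mean over IMAT, the median member was at -0.36, 1.07, -0.02, -0.07 and -0.67 in replicates 1 to 5. Replicate 2 was the highest IMAT library for 57 of 64 members (89.1%) and replicate 5 the lowest for 44. Among all 12938 tested genes with a mean of at least 10 CPM in IMAT, replicate 2 was highest in 29.8% and replicate 5 lowest in 24.3%. Without TMM factors, replicate 2 was highest for 32 members and replicate 5 lowest for 28. The scaling moved all genes alike: the median of the 12912 of these genes with counts in every IMAT library was -0.01 in replicate 2 with TMM factors and -0.79 without, and the members' median stood 1.08 above it in both. In replicate 5 the members' median stood 0.61 below that of all genes under both scalings. A scaling factor cannot change such distances, so their agreement was fixed in advance and is no support.

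The size of these differences varied between members. The ratio of the highest to the lowest IMAT library was 3.94 for the median member and 2.42 for the median of the 12912 genes. It was under 2 for 7 members and over 5 for 22, and for all these genes the shares were 32.5% and 13.3%. Without replicate 2 it was under 2 for 30 members and over 5 for 0, and for all these genes 55.5% and 4.86%. The coefficient of variation in IMAT was 55.0% for the median member and 31.6% without replicate 2, against 34.6% and 28.1% for all genes of at least 10 CPM in IMAT. Replicate 2 also held the single gene with 31.5% of its counts, and the part of that library's composition in the members' values was not tested. The 292 genes beyond the SAT and VAT bound had the same order of libraries, with medians of -0.36, 1.28, 0.04, -0.12 and -0.76 in IMAT replicates 1 to 5. Replicate 2 was highest for 86.0% of them, beside 89.1% of the members.

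**Figure D5:**
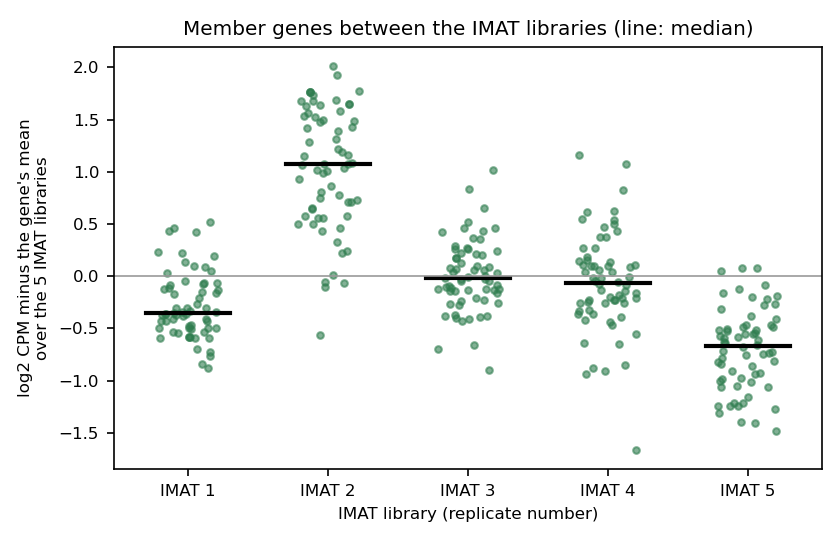
log2 CPM of each member minus its mean over the 5 IMAT libraries (y axis) by IMAT library (x axis), with 1 point per member and a black line at the median. The median is 1.07 in replicate 2 and -0.67 in replicate 5, and a few members lie at or below 0 in replicate 2.

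The member nearest to the 4-fold bound had a ratio of 4.01 and the nearest gene outside had 3.85. For SAT and VAT the values were 1.98-fold inside and 2.02-fold outside, and for the mean in IMAT 11.02 CPM inside and 9.04 CPM outside. When each of the 15 libraries was left out in turn, 36 of the 64 members met the rule every time. Apart from rescaling, leaving out a library can only ease the 4-fold condition. The count of 36 therefore bears mostly on the SAT to VAT bound, the mean in IMAT and members close to the 4-fold bound.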

How the data were processed

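RNA sequencing libraries of mature adipocytes from 3 fat depots (VAT, SAT and IMAT, 5 libraries each) were used. The authors deposited raw counts per gene, whole numbers without normalization. They came from Trimmomatic 0.30, STAR 2.5.2b and featureCounts of Subread 1.5.2, with DESeq2 1.6.3 also listed, per the submitters' processing notes. What the sources used here do not give is the build, the annotation, the strand setting and the handling of reads with several matches, so counts of near-identical gene copies, frequent in salmonids, and of overlapping genes are uncertain.

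Genes were filtered with filterByExpr by depot (minimum count 10, minimum total 15), and CPM used TMM factors (edgeR 4.0.16, R 4.3.3). The quasi-likelihood fit had depot as its only term, all 15 libraries and robust dispersions. It was also run on counts simulated from its own dispersions, which cannot show how it handles a library such as IMAT replicate 2. The SE of a log2 fold change is its size over the square root of F, a rough guide. The members and lists were chosen with earlier results of these data known. The identifiers printed are those of the member with the highest mean IMAT CPM and of the member with the highest ratio of lowest IMAT to highest other library. Other members described by rank were picked after their values were seen. The RefSeq table carried an Ensembl identifier in 0 lines, so 13 gene lists, 9 of them cell type markers, were not used, and no sequence is shown. Among 30 pairs of libraries within depots, chi-square per degree of freedom was at least 6.37, so none agreed within counting noise. DESeq2 1.42.0, other scalings and filters, and fits with libraries left out were the alternatives.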

Additional observations from a re-analysis of the deposited data

Results flagged for a closer look

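In 7 of 30 sets of 5 libraries, 1 library lay apart, with over 0.71 of the set's range between it and the next, and chance gives about 1 in 20 for independent, normally distributed values. These sets are not independent, since they share libraries and the summed level holds the same genes. They were also taken from the members ranked highest by mean IMAT CPM, which a single high IMAT library raises. The share of 7 in 30 can therefore not be weighed against that chance rate. In IMAT, replicate 2 stood above the others in the members' summed level, with 22368 CPM against 4428 to 9318 CPM. It did so for ENSOMYG00000029405 (8915 CPM against 1203 to 3413 CPM). For the gene ranked 2 it had 2220.1 CPM (388 to 806 CPM in the others), for the gene ranked 3 2045 CPM (255 to 681 CPM) and for the gene ranked 4 1025 CPM (116 to 346 CPM). In VAT, replicate 2 had 16.3 CPM of the gene ranked 2 (0.248 to 1.93 CPM in the others), and replicate 4 had 0.771 CPM of ENSOMYG00000022328 (0 to 0.198 CPM). Over all 64 members, such a library was found for 25 in IMAT, 10 in VAT and 7 in SAT. It was replicate 2 for 23 of the 25 in IMAT and for 5 of the 10 in VAT. Of all 12938 genes with at least 10 CPM in IMAT, 10.5% had such a library in IMAT, 14.8% in VAT and 7.5% in SAT.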

How the results depend on the processing

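The number of members depended on the rule's bounds. It was 154 over 2 times, 23 over 8 times, 29 at a mean of 50 CPM, 36 within 1.5-fold between SAT and VAT, and 356 without that bound. It was 121 when VAT replicate 5 was left out together with SAT replicates 4 and 5, which was decided after seeing the data. Fewer VAT and SAT libraries ease the 4-fold condition, no other such set was left out, and the cause was not tested. Other scalings and filters gave between 46 with plain CPM (45 of them members) and 68 without a filter (59 members). With every library thinned to the same total count, 66 genes met the rule, of which 49 were members. With 1 library left out it ran from 57 to 83. The 57 genes were found without VAT replicate 2 and included 51 of the members, the fewest for any single library. Against VAT the members' median log2 fold change lay between 4.68 and 5.20, and against SAT between 4.29 and 4.97. The 1 member called between VAT and SAT was 0 without a filter and 0 when tested against a 2-fold change, and 0 to 1 with 1 library left out. A replicate block gave 2. Same-numbered libraries of different depots correlated at -0.132 to 0.532 in their deviations, with 9 of 15 pairs over 0.1 and a median of 0.13. For different numbers the range was -0.421 to 0.295, with 18 of 60 pairs over 0.1 and a median of -0.04. The own number correlated best in 10 of 30 cases, each with 5 libraries to choose from. The labels do not say whether a number marks a fish, so the main fit took no pairs. Whether same-numbered libraries share a fish was not settled by these values. Depth limited the SAT to VAT ratio of members with few counts.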
